A study of Mus musculus with 6 samples.

Results

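LIF, the cytokine added to the culture medium of these cells, signals through a short chain of proteins, and the SALL4 sites around 8 genes of that chain are described here. The genes are Lif, Lifr, Il6st, Jak1, Stat3, Socs3, Pim1 and Gbx2. The sites are all intervals of the 4 SALL4 peak lists that touch the body of 1 of these genes or the 30 kb on either side of it in GRCm38, the genome build named in the submitters' processing notes. This gave 62 of the 55058 intervals in wild-type replicate 1 and 55 of the 48295 in wild-type replicate 2. In the knockout lists it gave 0 of 34 and 0 of 39.

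The lists come from CUT&RUN, in which a nuclease tethered to an antibody cuts around the protein of interest in opened cells, and the freed DNA is sequenced. Mouse embryonic stem cells of 2 lines were used. The line called wild type in the sample titles has the genotype Sall4F/F, with an intact Sall4 gene flanked by recombination sites, and the knockout line has the genotype Sall4-/-. Both lines grew in 2i + LIF medium, which holds inhibitors of differentiation signals beside the cytokine, so no group without LIF was measured. Each genotype is 1 line, with 2 SALL4 libraries, and no label says whether these came from separate cultures. The 2 IgG libraries, 1 for each line, were not analysed here.

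LIF binds the receptor chain encoded by Lifr, which pairs with the shared signalling chain gp130, encoded by Il6st. The kinase JAK1, bound to the receptor, then phosphorylates the transcription factor STAT3, which moves to the nucleus and switches on its target genes. In mouse embryonic stem cells this pathway is known for sustaining self-renewal, and SOCS3, itself induced by STAT3, shuts the signal down. Pim1 (a serine/threonine kinase) and Gbx2 (a homeobox factor) are known STAT3 targets in these cells. SALL4 is a zinc-finger protein that is known to favour AT-rich DNA.

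The sequences before 2 gene starts are shown first, since these are the only places where intervals of both wild-type lists reached into a promoter of the 8 genes. A promoter here is the 300 bases from 250 before to 50 after a start in the RefSeq table of GRCm38.p6, and 10 such promoters matched the 8 genes (Lifr and Pim1 have 2 each). Of these, 2 were overlapped by a consensus region, meaning a region with intervals in both wild-type lists and in neither knockout list. Over all 32851 promoters in the table the share was 2.89%. The 250 bases before both starts follow, 5′ to 3′ on the strand of the gene, with capitals for the bases covered in both wild-type lists.
Stat3, minus strand, chr11:100939541-100939790: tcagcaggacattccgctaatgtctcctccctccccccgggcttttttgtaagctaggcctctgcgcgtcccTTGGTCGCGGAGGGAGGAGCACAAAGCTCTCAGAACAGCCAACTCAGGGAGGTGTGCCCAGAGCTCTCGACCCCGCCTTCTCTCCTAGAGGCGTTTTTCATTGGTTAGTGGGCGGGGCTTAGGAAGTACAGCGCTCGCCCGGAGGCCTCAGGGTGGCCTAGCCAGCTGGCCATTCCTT
Pim1, second start, plus strand, chr17:29492835-29493084: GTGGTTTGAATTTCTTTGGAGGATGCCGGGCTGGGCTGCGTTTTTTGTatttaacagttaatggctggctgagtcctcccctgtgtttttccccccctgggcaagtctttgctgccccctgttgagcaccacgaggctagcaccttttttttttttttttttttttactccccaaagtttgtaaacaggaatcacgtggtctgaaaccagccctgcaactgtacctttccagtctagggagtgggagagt

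In Stat3, 178 of the 250 bases were covered in both lists, and A and T made up 38.8% of the covered bases and 40.3% of the others. In Pim1, 48 of the 250 bases were covered, with 50% A and T against 52.5% in the rest. Among the printed bases, the covered part was thus no richer in A and T than the rest in either promoter. Both summits of the Pim1 region, 29492783 and 29492787, lie before the printed bases, so the Pim1 capitals are only its edge. These letters cannot show which bases SALL4 favours. The short AT-rich word ATATT, or AATAT as it reads on the other strand, occurred in 0 of the 10 promoters, and in 25.3% of all promoters. The 10 promoters were also poorer in A and T, with a median of 35.3% beside 47.3% over all promoters. Whether the missing word goes beyond this base content was not tested, and most of the 10 had no consensus region. The palindromic STAT word TTCNNNGAA occurred in 1 of the 10, at Socs3, and in 8.3% of all promoters. It lies 154 to 146 bases before the Socs3 start on the minus strand and is printed in capitals with 10 bases on either side, since no interval of any list touched that promoter.
Socs3, chr11:117969502-117969530: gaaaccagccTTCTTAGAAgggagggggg

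A matching word is a description of these letters and not a measured site. The sequences of the stronger regions described next were not used here.

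The first comparison asked whether the intervals at these genes depend on the presence of SALL4. The wild-type lists held 62 and 55 intervals in the 8 windows, a mean of 58.5 ± 4.95 (SD, n = 2), and both knockout lists held 0. The wild-type and knockout libraries did not overlap. The difference was 5.89 on the scale of log2(number + 1), and exchanging the genotype labels of the 4 libraries (exact permutation, two-sided) gave p = 0.333, which no design of 2 against 2 can go below. A knockout interval was rare at any gene, with 0.00914% of the 21887 coding genes holding one in the gene or within 30 kb.

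The call limits of the knockout lists bound what an absent interval can show. The weakest calls in the knockout lists had a −log10 p of 6.61 and 7.12, whereas the weakest wild-type calls had 3.55 and 3.60. The fewest fragments at a called summit were 7 and 8 in the knockout and 4 in each wild-type list. Of all 37997 consensus regions, 23704 reached a −log10 p of 7.12 or more in both wild-type lists. Among the 46 consensus regions at the 8 genes, 28 did. For the other 18, an equal signal in the knockout could have gone uncalled. With the same limit of 8 on −log10 p for every list, they held 39 and 24 wild-type intervals and 0 knockout intervals.

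The wild-type lists were called separately, and an interval counted as found again if 1 bp or more overlapped. Replicate 2 contained 47 of the 62 intervals of replicate 1, or 75.8% (63.8 to 84.8, 95%, Wilson's method), beside 70.4% of all intervals. Replicate 1 contained 46 of the 55 intervals of replicate 2, or 83.6% (71.7 to 91.1), beside 79.3% of all intervals. These ranges cover counting error only, and both contain the share of the whole list. The 24 intervals found in 1 list alone were weak, with fold enrichments from 3.25 to 6.72 and 4 to 11 fragments at the summit.

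Consensus regions were present at 7 of the 8 genes, all but Jak1, where 58.4% of coding genes had one in the gene or within 30 kb. Because windows differ in length, numbers were compared per 10 kb of window. The median over the 8 genes was 0.603 consensus regions per 10 kb, against 0.111 over all coding genes. The order from dense to empty was Pim1 (1.22), Lifr (0.84), Lif (0.80), Socs3 (0.62), Il6st (0.58), Gbx2 (0.47), Stat3 (0.44) and Jak1 (0). Of coding genes, 99.0% had a lower density than Pim1 and 87.0% a lower density than Stat3. This order turned with a stricter limit on the calls. With a −log10 q of at least 10 in both lists, Pim1 fell from 8 regions to 0, while Lifr kept 6, Lif, Stat3 and Gbx2 2 each, and Il6st and Socs3 1 each. The densest were then Lifr (0.36 per 10 kb) and Gbx2 (0.32). The neighbours in either order rest on 0 to 14 regions each and were not tested against each other.

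**Figure D1:**
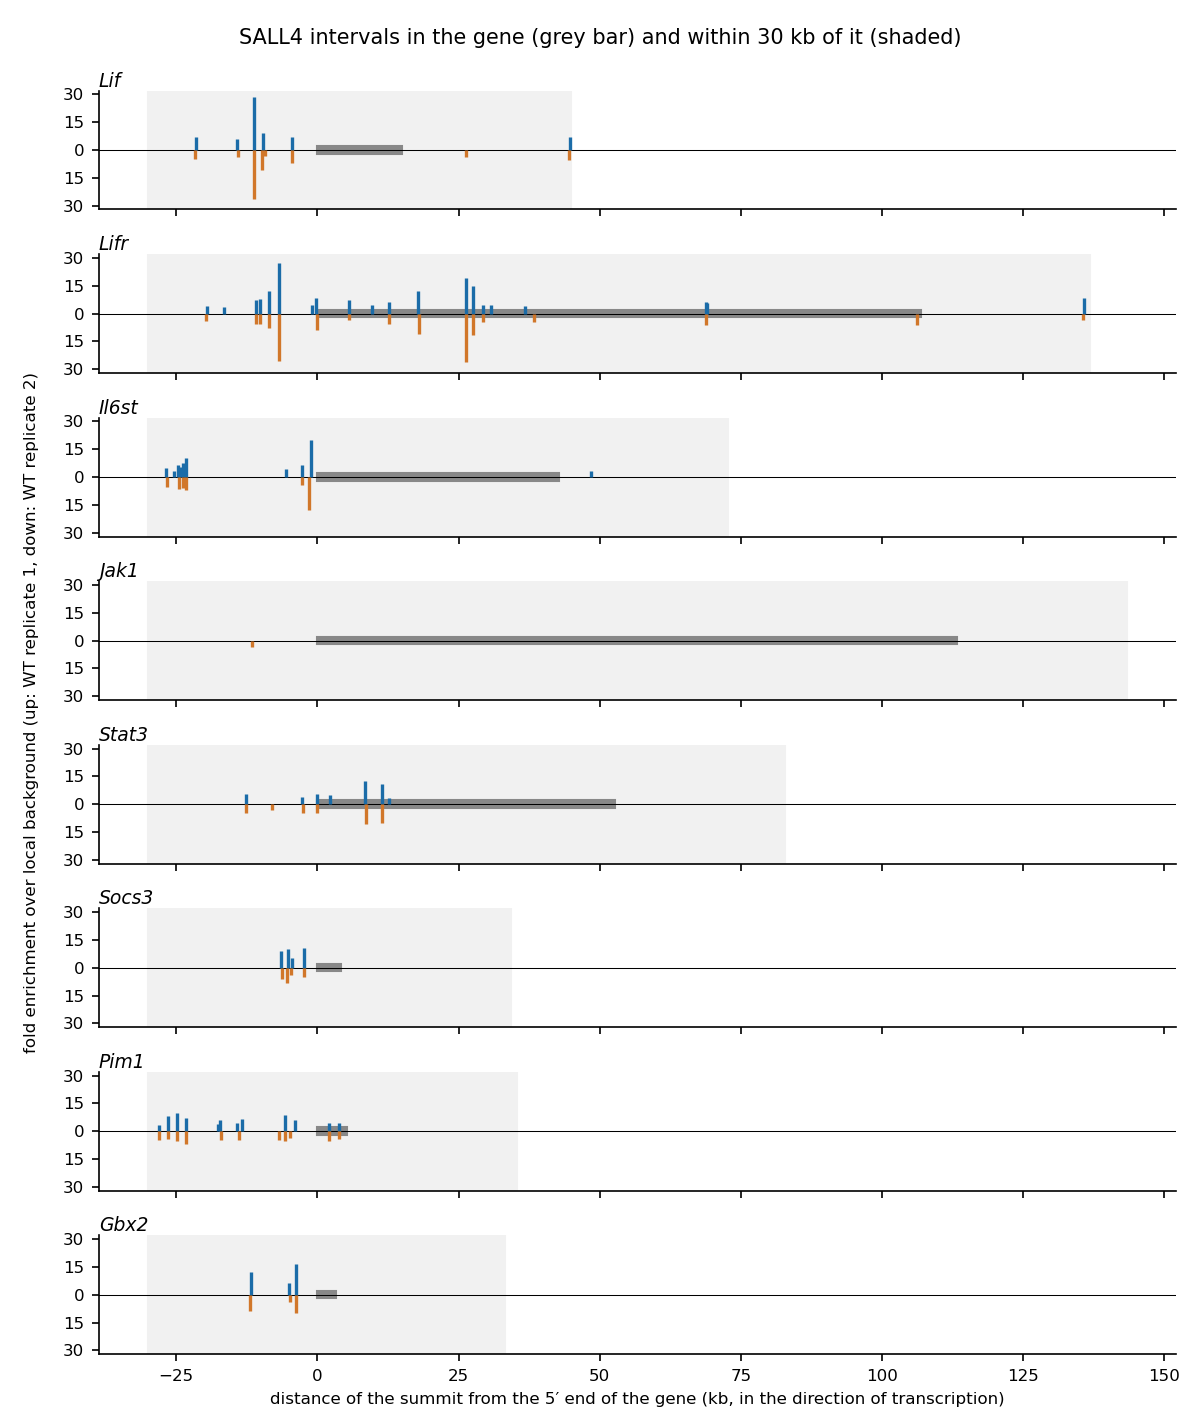
SALL4 intervals around the 8 genes. The x axis is the distance of the summit from the 5′ end of the gene in kb, in the direction of transcription. Stems are intervals and their length is the fold enrichment, upward for wild-type replicate 1 (blue) and downward for wild-type replicate 2 (orange). The bar is the gene body and the shading is the window, with 62 intervals in replicate 1 and 55 in replicate 2. The tallest stems stand before Lif, before Lifr and inside Lifr, and the Jak1 window holds 1 short stem.

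The ligand gene Lif (chr11:4257568-4272514, plus strand) held 6 and 8 intervals in the wild-type lists, which gave 6 consensus regions. The leading region, chr11:4245707-4247383, lay 11.2 kb before the start of the gene. Its fold enrichments over the local background, as given by the authors' peak caller, were 28.5 and 26.2 in replicates 1 and 2, and both knockout lists had no interval there. The summit rested on 55 fragments in replicate 1 (95% Poisson interval 41.4 to 71.6) and 51 in replicate 2 (38.0 to 67.1). These intervals overlap, here and at the regions below where it is stated. Such an overlap does not show that the replicates were equal, since the counts were not scaled to the read totals of the libraries. The region ranked 489 of 55058 and 561 of 48295, and its 1677 bp held 4 and 5 separate summits.

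The other Lif regions were weaker. A region 9.68 kb before the start, chr11:4247634-4248036, had fold enrichments of 9.3 and 10.5. The remaining 4 lay at 21.58, 14.16 and 4.51 kb before the start and at 44.65 kb after it, with fold enrichments from 5.9 to 7.1 in replicate 1 and from 3.9 to 6.8 in replicate 2. The farthest one upstream lay between a pseudogene and Osm, the gene of a related cytokine, and the one downstream lay in Gm11958, a gene of a long non-coding RNA. None of the 6 summits lay inside Lif itself.

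Lifr (chr15:7090610-7197489, plus strand), the gene of the LIF-specific receptor chain, held the most regions. The lists held 20 and 16 intervals there, which gave 14 consensus regions. The leading region, chr15:7083492-7084283, lay 6.8 kb before the 5′ end of the gene, with fold enrichments of 27.4 and 25.6 on 53 and 40 fragments. A region inside the gene, chr15:7115292-7117412, was the widest of the 46 at 2121 bp. Its fold enrichments were 19.3 and 26.2, on 37 fragments (26.1 to 51.0) and 51 (38.0 to 67.1). Replicate 1 had the higher value at the first of these regions and replicate 2 at the widest, where the counting intervals of the fragments overlapped.

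The 5′ end in the gene table and the starts in the promoter table differ for Lifr. The promoter table has starts at 7129572 and 7140542, both far inside the gene body. Of the 14 consensus regions, 12 lay before the first of these and 2 after it. The region closest to an end of the gene, chr15:7090315-7090580, lay 30 bp before the 5′ end of the gene table, with fold enrichments of 8.3 and 8.8. A neighbour of the widest region, chr15:7117909-7118459, had 15 and 11.6, and chr15:7108238-7108802 had 12.4 and 10.9. The interval closest to the start at 7129572, chr15:7128845-7128945, was in replicate 2 alone, with a fold enrichment of 4.67 on 6 fragments.

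Il6st (chr13:112464070-112506860, plus strand), the gene of the chain shared by LIF and related cytokines, held 10 and 6 intervals and 6 consensus regions. All 6 lay before the gene. The leading region, chr13:112462235-112463150, ended 920 bp before the start, with fold enrichments of 19.8 and 17.9. It rested on 38 fragments (26.9 to 52.2) and 26 (17 to 38.1), and these overlap. A smaller one lay 2.69 kb before the start (6.6 and 4.0), and the other 4 sat together 23.19 to 26.74 kb before it, with fold enrichments of 4.7 to 10.2 and 5.3 to 7.0.

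Jak1 (chr4:101151974-101265282, minus strand), the gene of the receptor-bound kinase, held 0 and 1 intervals and 0 consensus regions. Its window of 173.3 kb was the longest of the 8. The single interval, chr4:101276775-101276875, had a fold enrichment of 3.4 on 4 fragments, the lowest number of fragments called in that list. The nearest consensus regions lay 85.0 kb from the 5′ end and 205.1 kb from the 3′ end of the gene, with fold enrichments of 3.4 to 5.4. Together they bound a stretch of 403.4 kb without a consensus region, and 3.13% of the 37944 gaps between neighbouring consensus regions were as long. Of 1716 coding genes with a window within 20% of this length, 315 (18.4%) also had 0 consensus regions, and the median was 3. An empty window of this size was therefore not rare.

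Stat3 (chr11:100886806-100939594, minus strand), the gene of the transcription factor activated by JAK1, held 7 and 6 intervals and 5 consensus regions. The leading region, chr11:100930887-100931576, lay inside the gene, 8.51 kb after the start. Its fold enrichments were 12.5 and 10.9, on 18 and 16 fragments. A similar one, chr11:100927790-100928375, lay 11.34 kb after the start with 10.9 and 10.4, on 31 and 30 fragments. Its −log10 q was the higher in both lists (23.6 and 22.1, against 19.4 and 15.8), so the first leads by fold enrichment only. The region at the start, chr11:100939478-100939720, is the one whose bases are in capitals in the Stat3 sequence above. It was weaker, at 5.4 and 4.7 on 9 fragments (4.1 to 17.1) and 8 (3.5 to 15.8), and its summits lay 24 bp apart. The long non-coding RNA gene Gm46295 also covers this position, so the site cannot be given to 1 of the genes alone.

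Socs3 (chr11:117966079-117970336, minus strand), the gene of the inhibitor, held 4 intervals in each list and 4 consensus regions. All 4 lay before the start, within the stretch from 3.37 to 7.28 kb, and none reached the STAT word printed above. These distances are from the start in the promoter table, 117969366. From the 5′ end in the gene table they are 2.4 to 6.31 kb, and the STAT word lies inside that gene body. The leading region, chr11:117975355-117975854, had fold enrichments of 10.2 and 8.3. The region nearest to the start, chr11:117972565-117972959, had 10.7 and 4.8 but nearly equal fragment numbers, 20 (12.2 to 30.9) and 18 (10.7 to 28.4). The local background there was 0.97 fragments in replicate 1 and 2.96 in replicate 2, so this fold difference came with a difference in background. The other 2 regions had 5.4 and 9.2 in replicate 1 and 4.0 and 6.0 in replicate 2.

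The target gene Pim1 (chr17:29490785-29496111, plus strand) had the densest window by all calls and no strong region. The lists held 12 and 11 intervals and shared 8 regions, with fold enrichments from 3.4 to 9.6 and from 4.1 to 6.8. The region leading by the worse of its 2 ranks, chr17:29467518-29467739, had 6.9 and 6.8 on 9 fragments each. Of the 8 regions, 6 lay before the gene, from 28.08 to 5.72 kb upstream, and all 6 lay in Gm26885, a gene of a long non-coding RNA. The region whose bases are capitals in the Pim1 sequence, chr17:29492649-29492906, had 4.4 and 5.4 on 12 and 15 fragments. Of the 8 Pim1 regions, 3 reached a −log10 p of 7.12 in both lists, as did 4 of 6 at Lif.

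The target gene Gbx2 (chr1:89927962-89931176, minus strand) held 3 intervals in each list, and all 3 were shared. They lay 3.74, 4.93 and 11.83 kb before the start. The leading region, chr1:89934660-89935328, had fold enrichments of 16.8 and 9.7, with 32 fragments (21.9 to 45.2) and 28 (18.6 to 40.5) over backgrounds of 0.97 and 1.98. The region farthest away, chr1:89942864-89943276, had 12.2 and 8.7, and the one between them had 6.3 and 4.0. Replicate 1 was higher at all 3.

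**Figure D2:**
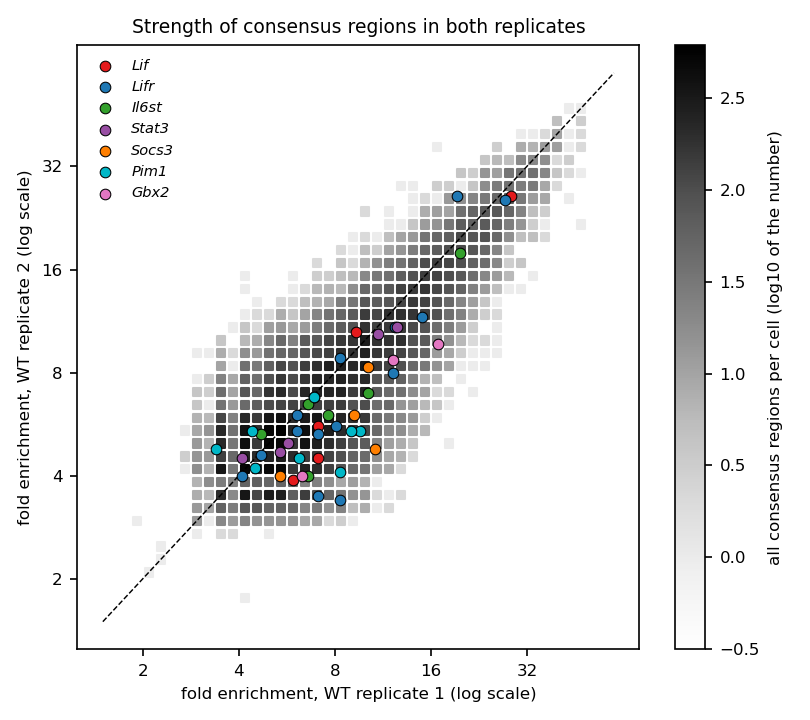
Fold enrichment of the 46 consensus regions at the 8 genes (coloured by gene) in wild-type replicate 1 (x axis) and replicate 2 (y axis), both on log scales. Grey squares count all 37997 consensus regions and the dashed line marks equal values. 1 region at Lif and 2 at Lifr lie near the upper end, and 39 of the 46 regions have the higher value in replicate 1.

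Across genes, the median strength of the regions was close to that of the whole list in replicate 1 and lower in replicate 2. The median fold enrichment of the 46 regions was 7.37 in replicate 1 and 5.52 in replicate 2, beside 7.11 and 6.54 over all consensus regions. A fold enrichment of at least 10 in both lists was reached by 8 of the 46 (17.4%), and by 21.2% of all consensus regions. These 8 were 1 at Lif, 4 at Lifr, 1 at Il6st and 2 at Stat3. In 39 of the 46 the value was higher in replicate 1 (84.8%), a larger share than the 65.2% of all regions. These differences from the whole list were not tested. Pearson's r between the replicates was 0.848 on the log2 scale and Spearman's rho 0.75 over these 46 regions, beside 0.834 and 0.771 over all consensus regions. Regions share their libraries and are not independent replicates.

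In the flanks of these genes the regions lay mostly on the upstream side, a pattern seen in the data and then counted. With each summit placed by the strand of its gene, 33 consensus regions lay in the 30 kb upstream of the 8 genes, 11 in their bodies and 2 in the 30 kb downstream. That is 1.38 regions per 10 kb upstream and 0.083 downstream. Over the 17492 coding genes with a strand in the promoter table, the values were 0.209 and 0.175 per 10 kb. The upstream flank held more regions than the downstream flank at 7 of the 8 genes, and at Jak1 both held 0. More upstream than downstream was found at 24.3% of those coding genes, and at 54.4% of the 2626 with at least 3 regions in the flanks. Of these 2626 genes, 24.0% had none downstream, as did Il6st, Stat3, Socs3, Pim1 and Gbx2.

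**Figure D3:**
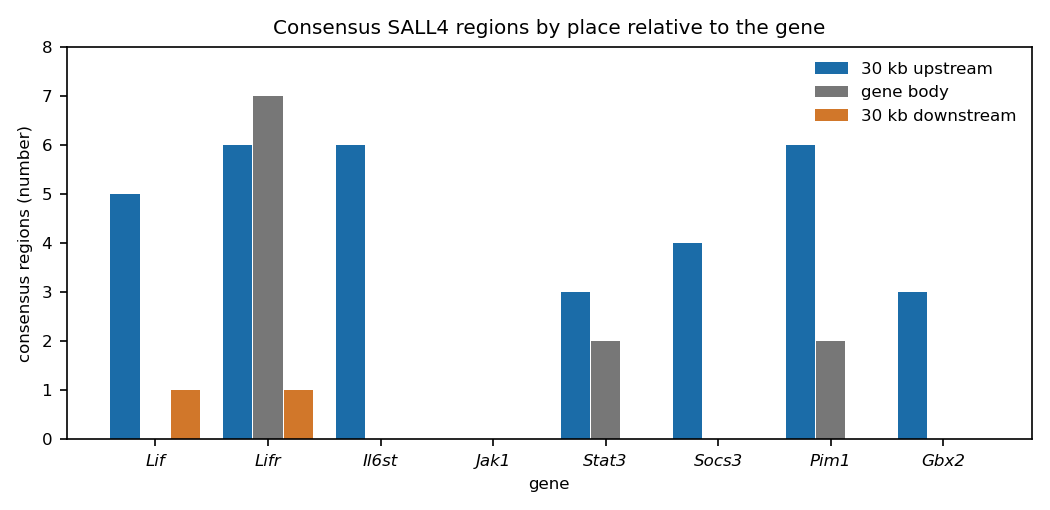
Number of consensus regions (y axis) at each of the 8 genes (x axis) in the 30 kb upstream, in the gene body and in the 30 kb downstream, by the strand of the gene. The upstream bars sum to 33 and the downstream bars to 2, and Jak1 has none.

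The same was counted in each wild-type list alone. Replicate 1 had 42 summits upstream and 3 downstream, and replicate 2 had 39 and 3. Over the coding genes with a strand, replicate 1 had 0.301 per 10 kb upstream and 0.259 downstream. In replicate 2 these values were 0.263 and 0.223. No test of this direction was made, since the genes were few and the pattern was noticed first. The regions upstream of Pim1 lie in another gene, and windows can hold neighbours of a member, so a place upstream of a gene does not assign the region to it.

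Other genes of the pathway, 42 in number, served for comparison. Consensus regions were present at 26 of the 42 (61.9%), close to the 58.4% of all coding genes, and the median density was 0.124 per 10 kb. By role, regions were present at 3 of 7 ligand genes, 3 of 4 receptor genes, 2 of 3 JAK kinase genes and 1 of 6 STAT genes. They were present at 6 of 9 genes of inhibitors, 2 of 3 phosphatase genes and 9 of 10 genes listed as targets. The median density of the target genes was 0.594 per 10 kb, like that of the 8 genes, and the median of the STAT genes was 0.

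The highest densities were those of Klf5 (1.61 per 10 kb, 12 regions), Mcl1 (1.21, 8 regions) and Myc (0.92, 6 regions). Klf5 and Myc encode transcription factors that sustain embryonic stem cells, and Mcl1 encodes an inhibitor of cell death. Genes without a consensus region included Il6, Ctf1, Clcf1, Il11ra1, Jak3, Stat5a, Stat5b, Socs1, Socs5, Cish, Ptpn6 and Junb. Of these, Stat5a and Stat5b are neighbours of Stat3, and their windows overlap that of Stat3 but end before its regions. The 5 regions counted for Osm are also those upstream of Lif. Both knockout lists held 0 intervals at all 42 genes.

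**Figure D4:**
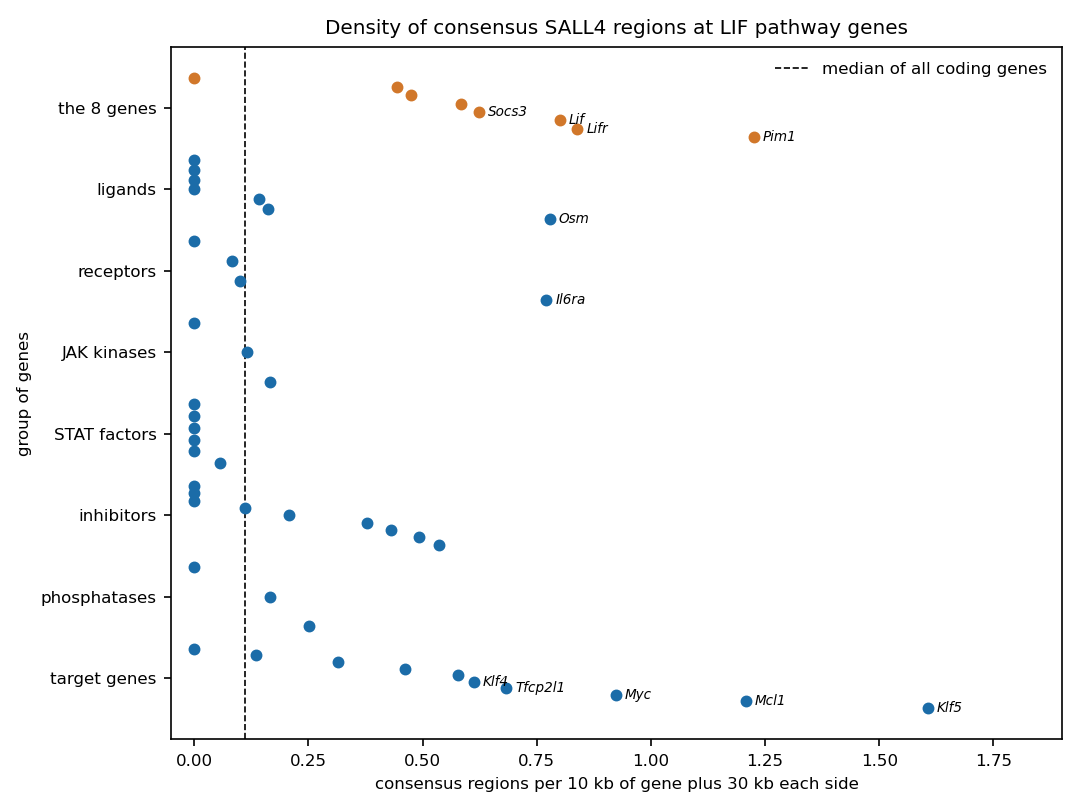
Consensus regions per 10 kb of gene plus 30 kb each side (x axis) for the 8 genes (orange) and the 42 other pathway genes by role (blue). The dashed line is the median of all coding genes, 0.111. Pim1, Klf5 and Mcl1 lie farthest to the right, and 5 of the 6 other STAT genes lie at 0.

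The limit of 30 kb decides which regions count. The farthest regions inside it lay 29.6 kb from Lif (fold enrichments of 7.1 and 5.6) and 28.7 kb from Lifr (8.3 and 3.4). The nearest outside it lay 32.6 kb from Lifr (6.9 and 4.1) and 34.0 kb from Il6st (4.1 and 6.1). Within 10 kb, 7 of the 8 genes had a consensus region, beside 42.1% of coding genes. In the gene body alone it was 3 of 8 (Lifr, Stat3 and Pim1), beside 27.6% of coding genes.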

How the data were processed

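Peak lists of 4 SALL4 CUT&RUN libraries were used, 2 from wild-type and 2 from Sall4 knockout mouse embryonic stem cells, grouped by sample title. BWA 0.7.17, MACS2 2.1.1.20160309 and the build GRCm38 (mm10) are named in the submitters' processing notes, without their settings. Each list was called on 1 sample. Where the labels' antibody field and the titles disagreed for the IgG samples, the titles were followed, as they were for wild-type replicate 2, whose peak names read Sall4KWT in place of Sall4WT.

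The deposited columns give a score (10 times −log10 q, cut to a whole number), the fold enrichment over a local background (a ratio), and −log10 p and −log10 q at the summit, all set by the authors' peak caller. The fold enrichment and −log10 p, with a pseudocount of 1, together gave an integer fragment count at the summit in 100% of lines (tolerance 0.0001). The read total of a library was not recovered. The recovery, overlaps and window counts were checked on simulated intervals.

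Overlapping lines of a list were merged, keeping the highest fold enrichment. Gene ends came from the RefSeq table of GRCm38.p6, which holds no exons, so exon and intron are not given. Strand and starts came from the promoter table, which holds 17492 of the 21887 coding genes. The 8 genes and the list of 42 were chosen with earlier results of these data known. Regions were named by rule, namely the region with the best worse rank of fold enrichment in the 2 wild-type lists at each gene and those within 1 kb of a start or end; others were named after their values were seen. Of the list, the 3 densest genes and those at 0 were named, apart from some that are not reported here. Alternatives covered the window, q, p and fold limits, the overlap rule, each replicate left out and a replicate block. Python 3.11.15, numpy 2.4.6, pandas 2.3.3, scipy 1.17.1 and matplotlib 3.10.9 were used.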

Additional observations from a re-analysis of the deposited data

How the results depend on the processing

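The excess of wild-type over knockout intervals at the 8 genes could not turn in any of the 10 alternatives, since the knockout lists held 0 intervals in the widest windows. Its size ranged from 3.61 (fold enrichment of at least 10) to 5.98 on the log2(number + 1) scale, and was 5.81 to 5.98 with 1 library left out. Both genotypes share replicate numbers, and pairing the libraries by number (replicate block) gave 5.89 with p = 0.5 by exact sign flips, the lowest possible with 2 pairs. Whether the numbers pair the libraries was not tested. The share found in the other wild-type list, 79.7% on average, was 100% among intervals with −log10 q of 10 or more and 60% with summits within 100 bp, which accepts fewer pairs by construction. Genes with a consensus region numbered 7, 3 in the gene body alone, 6 at a −log10 q of at least 10 in both lists (31.1% of coding genes), and 8 without wild-type replicate 1 and 7 without replicate 2 (63.2% and 66.5% of coding genes). The median density of 0.603 per 10 kb was 0.68 with 10 kb each side, 0.0 in gene bodies and 0.166 at the strict q, where the median of coding genes was 0.0 in each case. It ranged from 0.603 to 0.712 with a wild-type replicate left out. Of the 42 other genes, 26 had a region, 14 at the strict q (33.3%, near the same 31.1%) and 32 without replicate 1 and 33 without replicate 2 (76.2% and 78.6%). The count of genes with more regions upstream than downstream, 7, was 5 at the strict q, 7 within 10 kb, and 7 to 8 in single lists, alternatives chosen after seeing the data. The planned A+T content at summits was not run, since no genome sequence was used here. Regions with 4 to 9 fragments limit the precision.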

Other observations

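At the other pathway genes with a strand in the promoter table, the summed regions of the 2 flanks were closer in number. Klf5, the densest of the list, and Myc have no strand there and were left out. Of the 31 with a strand in the promoter table, 10 held more consensus regions upstream and 5 more downstream, with 23 regions upstream and 19 downstream in all. Il6ra, the gene of the IL-6 receptor, held 6 regions downstream and 0 upstream, and Klf4, a pluripotency factor gene, held 3 downstream and 0 upstream. Tfcp2l1, which encodes a transcription factor downstream of STAT3, held 4 upstream and 0 downstream. The difference between these genes and the 8 was not tested.

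Promoters with a consensus region resembled all promoters in the letters searched. Over the 950 promoters with a region, the median A+T content was 47.7% and 27.5% held the word ATATT or AATAT, beside 47.3% and 25.3% over all 32851. The word TTCNNNGAA was held by 8.42% and 8.3%.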
